A study of Mus musculus with 8 samples.

Results

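The genes of the endocardial cushions and heart valves were examined in fetal mouse hearts that lack the type 3 deiodinase (DIO3), the enzyme that inactivates thyroid hormones. The 10 genes were chosen by symbol. They were the transcription factor genes *Sox9*, *Twist1*, *Msx1*, *Msx2*, *Snai1*, *Snai2* and *Nfatc1*, the ligand gene *Tgfb2* and the matrix genes *Has2* and *Postn*, of 26590 gene symbols in the table. All 10 were found, in 20 transcript rows, and all passed the limit for testing, a mean above 1 RPKM (reads per kilobase of transcript, scaled to the mapped reads) in at least 1 genotype. Each gene was taken by its most abundant row, judged by the average of the genotype means, and its other rows were compared with it. RNA of whole hearts was depleted of ribosomal RNA and sequenced in 4 Dio3+/+ and 4 Dio3-/- fetuses on a C57BL/6J background, each library from an individual mouse. The mutation was present in all cells and not only in the heart, and the line was first made on the 129/SVJ strain and then backcrossed. Every title gave the embryonic day as E13.5, but the age field placed Dio3-/- hearts 3 and 4 at E18.5 and the rest at E13.5, and the study's Methods name yet another embryonic day for the RNA of all hearts. Should the age field hold, age and genotype cannot be told apart in these means.

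The deposited table held the authors' mean for each genotype with a coefficient of variation (CV), the SD relative to that mean, and no value for a single heart, so neither the hearts labeled E18.5 nor any other heart could be left out. Read totals were not part of it, so the depth behind each value cannot be read from it. The study's Methods state a range of aligned reads per sample, which was not used here. The *Dio3* transcript averaged 0.35 RPKM (CV 1.23) across Dio3+/+ and 0.13 RPKM (0.76) across Dio3-/- hearts, too low to check the genotype labels. The series describes male fetuses, but *Xist*, made from the inactive X chromosome in females, had means of 35.64 and 39.97 RPKM, and the Y-linked *Eif2s3y* had means of 9.38 and 7.29 RPKM, with CVs from 0.55 to 1.46 for these transcripts. The tissue carried the markers of its main cell types. All 10 cardiomyocyte markers were tested, with Dio3+/+ means from 24.20 RPKM (*Ryr2*) to 4778.41 RPKM (*Actc1*), as were all 10 endocardial and endothelial markers, with means from 3.64 RPKM (*Cldn5*) to 71.96 RPKM (*Cdh5*).

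Valves form from endocardial cushions, swellings of hyaluronan-rich matrix between endocardium and myocardium. Signals of the TGF-β, BMP and Notch families make some endocardial cells lose their junctions and move into this matrix as mesenchyme, an epithelial-mesenchymal transition (EMT). Other endocardial cells stay in place, and there NFATC1 drives the elongation of the valve leaflets. The cushion mesenchyme later lays down the layered matrix of the mature valve and contributes to the septa of the heart. In whole hearts, fewer cells of a type and less RNA per cell cannot be told apart.

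None of the 10 genes passed the test for a difference between the genotypes, limma with Benjamini-Hochberg adjustment over all 32703 rows tested (adjusted *P* from 0.298 to 0.915), and 0 had an unadjusted *P* value under 0.05. Over the 14657 genes tested, also taken by their highest row, 2.29% passed the adjusted threshold (1.91% higher and 0.382% lower in Dio3-/- hearts) and 19.7% the unadjusted one. None of the 20 rows passed, beside 2.15% of all rows. Welch's test from the same summaries called 0 of the 10 beside 0.177% of all genes tested, with 0 at an unadjusted *P* value under 0.05 beside 16.4%. The means of *Msx2*, *Msx1* and *Nfatc1* were higher in Dio3-/- hearts, and so was that of *Postn*, whose sign turned with centring, that is, when the median log2 ratio of all rows was set to 0. Those of *Twist1*, *Sox9*, *Tgfb2*, *Snai2*, *Has2* and *Snai1* were lower, 6 of 10 genes beside 36.1% of all genes tested, or 7 of 10 beside 49.4% with centring. Log2 fold changes are of RPKM + 0.5, which understates those of low genes. Their median over the 10 genes was −0.10, beside 0.04 over all genes tested.

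The spread between the hearts of a genotype was also compared, as a description with no test. The CV was larger in Dio3+/+ than in Dio3-/- hearts for all 10 genes, and for 65.4% of all genes tested. Its median over the 10 genes was 0.31 in Dio3+/+ and 0.08 in Dio3-/- hearts, beside 0.09 and 0.06 over all genes tested. The 10 values come from the same hearts and are not independent of each other. In Dio3-/- hearts the CVs of the 10 genes were between 0.04 and 0.19.

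The mean and the SD also limit where single hearts can lie. Of 4 values, the highest lies between 0.5 and 1.5 SDs above their mean and the lowest between 0.5 and 1.5 SDs below it. The limits given here include the rounding of the deposited values and take the SD as a sample SD, since the largest CV in the table was 2, as 4 values allow with a sample SD. For 6 of the 10 genes (*Tgfb2*, *Sox9*, *Twist1*, *Snai1*, *Snai2* and *Has2*), these limits put at least 1 Dio3+/+ heart above all 4 Dio3-/- hearts, as they did for 22.3% of all genes tested. The opposite, at least 1 Dio3-/- heart above all 4 Dio3+/+ hearts, held for 1 gene (*Msx2*) and for 26.9% of all genes tested. A Dio3+/+ heart was below all Dio3-/- hearts for *Postn* and *Msx2* (34.4% of all genes tested), and a Dio3-/- heart below all Dio3+/+ hearts for none (5.53%). For no gene were the genotypes shown to lie apart, which 3.85% of all genes tested were. For 8 genes the limits required the genotypes to overlap (54.2% of all genes tested), and for *Msx1* and *Msx2* they left this undecided (41.9%).

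**Figure D1:**
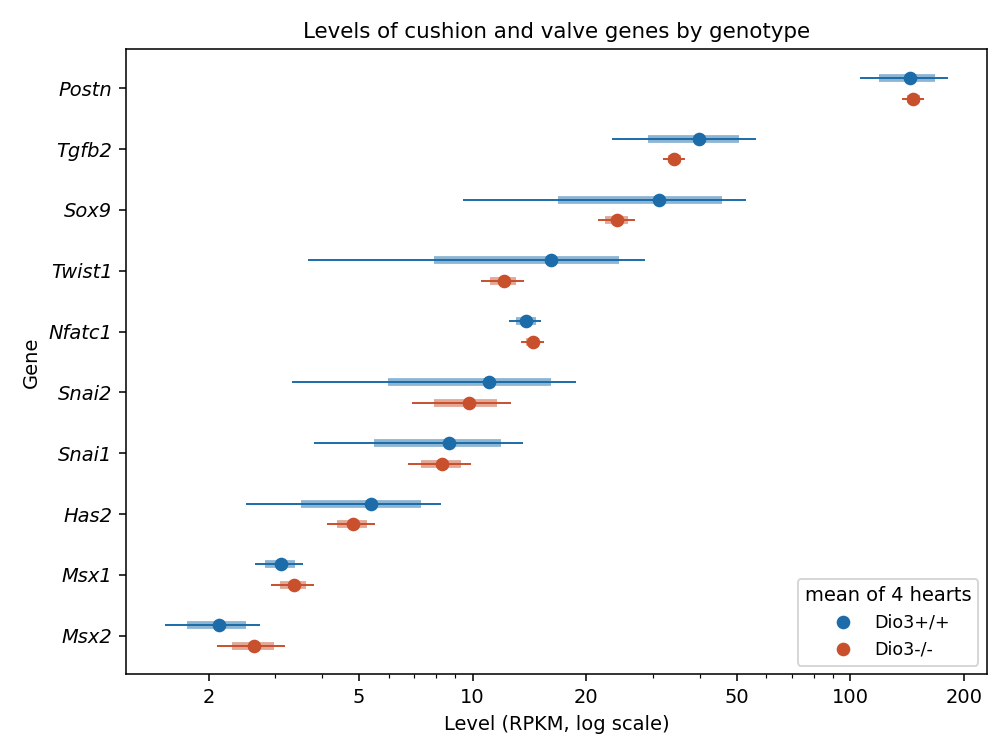
Level of each gene in RPKM (log axis) in Dio3+/+ (blue) and Dio3-/- (orange) hearts. Points are the authors' means of 4 hearts, thick bars are 1 SD either way, and thin lines reach from the lowest to the highest value that any of the 4 hearts can have had. Levels span from 2.13 RPKM (*Msx2*) to 147.11 RPKM (*Postn*), and the thin lines of *Sox9*, *Twist1* and *Tgfb2* are far longer in Dio3+/+ than in Dio3-/- hearts.

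By level per length, *Postn* was the highest of the 10 genes, followed in Dio3+/+ hearts by *Tgfb2*, *Sox9*, *Twist1*, *Nfatc1*, *Snai2*, *Snai1*, *Has2*, *Msx1* and *Msx2*. The order was the same in Dio3-/- hearts but for *Twist1* and *Nfatc1*, which changed places. In Dio3+/+ hearts, neighbours from *Tgfb2* down to *Has2* had overlapping ranges of mean ± SD, and only *Postn* above *Tgfb2*, *Has2* above *Msx1* and *Msx1* above *Msx2* were separate. In Dio3-/- hearts the only overlapping neighbours were *Twist1* with *Snai2* and *Snai2* with *Snai1*. *Postn* lay above 96.9% of all genes tested in its mean over both genotypes and *Msx2* above 14.7%.

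*Sox9* encodes an HMG-box transcription factor of cushion mesenchyme that is also the main regulator of cartilage. In row uc011ygx.1, its highest, the mean was 31.25 RPKM (CV 0.46) for Dio3+/+ and 24.17 RPKM (0.07) for Dio3-/- hearts. The highest Dio3+/+ heart had at least 38.4 RPKM and the lowest at most 24.1 RPKM, while all Dio3-/- hearts were between 21.4 and 26.9 RPKM. Thus at least 1 Dio3+/+ heart was well above the narrow band of the Dio3-/- hearts, and at least 1 was within or below it. In log2 units the difference was −0.36 (standard error 0.26, adjusted *P* = 0.509 by limma), with a 95% confidence interval from −0.96 to 0.23. In fold terms this interval reached from 0.515 to 1.17, so neither a substantial loss nor a small gain of the transcript could be told from no change. The other 2 rows of *Sox9* had log2 fold changes of −0.36 and −0.35, and the row with the lowest level, uc007med.2, had the widest spread, with a CV of 0.53 in Dio3+/+ and 0.06 in Dio3-/- hearts.

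*Twist1* encodes a basic helix-loop-helix factor that keeps cushion cells proliferating and mesenchymal. It had the widest spread of the 10 genes in Dio3+/+ hearts, averaging 16.14 RPKM (CV 0.51) across Dio3+/+ and 12.09 RPKM (0.08) across Dio3-/- hearts. The highest Dio3+/+ heart had at least 20.2 RPKM, and no Dio3-/- heart more than 13.6 RPKM. A CV as large was found in Dio3+/+ hearts for 2.65% of all genes tested, against 38.1% for its value in Dio3-/- hearts. Its log2 difference was −0.40 (standard error 0.29; limma adjusted *P* = 0.504), with an interval from −1.05 to 0.25. Of the 10 intervals it was the only one to include a 2-fold decrease, and none included a 2-fold increase.

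**Figure D2:**
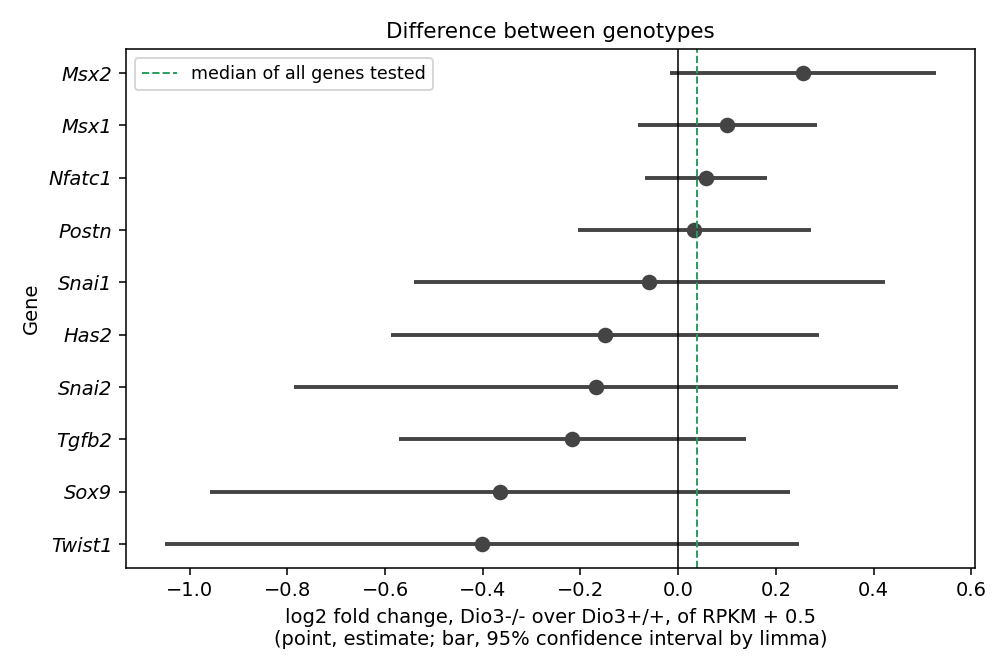
Log2 fold change of each gene between Dio3-/- and Dio3+/+ hearts (x axis, of RPKM + 0.5; points) with its 95% confidence interval by limma (bars); the dashed line is the median of all genes tested, 0.04. All 10 intervals include 0, with the narrowest for *Nfatc1* (−0.07 to 0.18) and the widest for *Twist1* (−1.05 to 0.25); centring the genotypes turned the sign of *Postn* and of no other gene.

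*Snai1* and *Snai2* encode zinc finger repressors that switch off cadherin genes during EMT by binding the E-box CAGGTG. *Snai1* averaged 8.68 RPKM (CV 0.37) across Dio3+/+ and 8.31 RPKM (0.12) across Dio3-/- hearts. Its highest Dio3+/+ heart had at least 10.3 RPKM, above the 9.87 RPKM that the highest Dio3-/- heart could reach. On the log2 scale it differed by −0.06 (standard error 0.21, adjusted *P* = 0.915 by limma), with an interval from −0.54 to 0.42. *Snai2* had means of 11.03 RPKM (0.46) and 9.76 RPKM (0.19), the latter the widest spread of the 10 genes in Dio3-/- hearts. Its highest Dio3+/+ heart had at least 13.53 RPKM, and Dio3-/- hearts reached at most 12.6 RPKM. On the log2 scale it differed by −0.17 (standard error 0.28, adjusted *P* = 0.797 by limma), with an interval from −0.79 to 0.45. For both genes the means differed by less than the SD of the Dio3+/+ hearts.

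*Msx1* and *Msx2* encode related homeobox factors induced by BMP signals at the sites where cushions form. They had the lowest levels of the 10 genes, and less spread in Dio3+/+ hearts than *Snai1* and *Snai2*. *Msx1* had means of 3.10 RPKM (CV 0.09) and 3.36 RPKM (0.08), which differ by 0.10 in log2 units (standard error 0.08, adjusted *P* = 0.560 by limma) with an interval from −0.08 to 0.28. *Msx2* had means of 2.13 RPKM (0.18) across Dio3+/+ and 2.64 RPKM (0.13) across Dio3-/- hearts. At least 1 Dio3-/- heart, with 2.80 RPKM or more, was above all Dio3+/+ hearts, which reached at most 2.73 RPKM. At least 1 Dio3+/+ heart, with 1.95 RPKM or less, was below all Dio3-/- hearts, which had at least 2.10 RPKM. The log2 fold change of *Msx2*, 0.26 (standard error 0.12), had the lowest adjusted *P* value of the 10 genes (0.298 by limma; unadjusted 0.063), with an interval from −0.02 to 0.53.

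*Nfatc1*, the marker of the endocardial cells that stay in place, had the smallest CV of the 10 genes in Dio3+/+ hearts. Its highest row, uc012bfl.1, averaged 13.85 RPKM (CV 0.06) across Dio3+/+ and 14.43 RPKM (0.04) across Dio3-/- hearts. No heart was below 12.5 or above 15.4 RPKM, and the genotypes overlapped. The log2 fold change was 0.06 (standard error 0.06, adjusted *P* = 0.636 by limma). Its 95% confidence interval was from −0.07 to 0.18, which is from 0.954-fold to 1.13-fold. The 6 rows of *Nfatc1* had log2 fold changes from 0.06 to 0.09. The row with the lowest level, uc008ftg.2, had means of 11.69 RPKM (0.04) and 12.51 RPKM (0.02) and an adjusted *P* value of 0.323 by limma.

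*Tgfb2* encodes TGF-β2, the ligand that drives EMT and matrix remodeling in the cushions. Its means were 39.88 RPKM (CV 0.27) across Dio3+/+ and 34.24 RPKM (0.04) across Dio3-/- hearts. The highest Dio3+/+ heart had at least 45.2 RPKM, and the Dio3-/- hearts were all between 31.9 and 36.6 RPKM. The ratio of the CVs, 6.75, was the largest of the 10 genes, and 2.87% of all genes tested had one as large. The means themselves differed by −0.22 in log2 units (standard error 0.16; limma adjusted *P* = 0.511), with an interval from −0.57 to 0.14. The other row of *Tgfb2* had the same log2 fold change, −0.22, and CVs of 0.27 and 0.03.

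*Has2* encodes the synthase of hyaluronan, the polymer that swells the cushion matrix. It averaged 5.39 RPKM (CV 0.35) across Dio3+/+ and 4.81 RPKM (0.09) across Dio3-/- hearts. At least 1 Dio3+/+ heart had 6.31 RPKM or more, above the limit of 5.50 RPKM for the Dio3-/- hearts. The difference in log2 units was −0.15 (standard error 0.20, adjusted *P* = 0.737 by limma), with an interval from −0.59 to 0.29. *Has2as*, the antisense transcript of the same locus, had means of 1.12 RPKM (0.45) and 1.14 RPKM (0.16). Whether the counting used strand is not given in the sources used here, and reads from overlapping parts of the gene and its antisense partner cannot be told apart. The other hyaluronan synthase genes were below the limit for testing, with Dio3+/+ means of 0.51 RPKM for *Has1* and 0.81 RPKM for *Has3*.

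*Postn* encodes periostin, a secreted protein that organizes collagen in maturing valves and is also made by fibroblasts and bone-forming cells. In its highest row it averaged 143.75 RPKM (CV 0.17) across Dio3+/+ and 147.11 RPKM (0.04) across Dio3-/- hearts. At least 1 Dio3+/+ heart, with 131.9 RPKM or less, was below all Dio3-/- hearts, which had at least 137.2 RPKM. Thus *Postn* differed from *Sox9*, *Twist1* and *Tgfb2* in the side on which the limits placed a Dio3+/+ heart outside the Dio3-/- hearts. The limits did not decide whether a Dio3+/+ heart was also above all Dio3-/- hearts for *Postn*, or below them for *Sox9*, *Twist1* and *Tgfb2*. The log2 difference of *Postn* was 0.03 (standard error 0.11, adjusted *P* = 0.903 by limma), a value that turned to −0.0047 with centring, with an interval from −0.20 to 0.27. All 3 rows of *Postn* had log2 fold changes of 0.03 and CVs of 0.17 or 0.18 in Dio3+/+ hearts.

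The bases before the start sites of the genes are shown because some of these proteins bind the E-box. AGGTCA, a half-site of thyroid hormone response elements and not a whole element, was also searched for. RefSeq promoters (GRCm38.p6) were found for 6 of the 10 genes, in 7 windows, and not for *Sox9*, *Snai2*, *Nfatc1* and *Has2*. In the 250 bases before each start, on both strands, CAGGTG was found for *Snai1* and *Msx1* and in 17.2% of all 32851 windows. AGGTCA was found in 1 of the windows of *Postn* and in 14% of all windows. No window of these genes held both sequences. The matches, on the reverse strand as CACCTG or TGACCT, are in capitals in these windows, written 5′ to 3′ in the direction of transcription.
*Snai1*, chr2:167537945-167538194, plus strand: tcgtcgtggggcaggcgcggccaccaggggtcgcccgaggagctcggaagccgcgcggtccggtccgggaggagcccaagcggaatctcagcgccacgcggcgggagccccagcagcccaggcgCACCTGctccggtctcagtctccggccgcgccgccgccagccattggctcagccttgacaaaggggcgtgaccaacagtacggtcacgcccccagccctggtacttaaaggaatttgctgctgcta
*Msx1*, chr5:37824586-37824835, minus strand: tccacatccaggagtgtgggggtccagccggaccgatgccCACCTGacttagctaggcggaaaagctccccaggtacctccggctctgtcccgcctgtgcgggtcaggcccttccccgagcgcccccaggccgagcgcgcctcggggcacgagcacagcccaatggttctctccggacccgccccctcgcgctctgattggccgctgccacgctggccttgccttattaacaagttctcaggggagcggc
*Postn*, chr3:54359017-54359266, plus strand: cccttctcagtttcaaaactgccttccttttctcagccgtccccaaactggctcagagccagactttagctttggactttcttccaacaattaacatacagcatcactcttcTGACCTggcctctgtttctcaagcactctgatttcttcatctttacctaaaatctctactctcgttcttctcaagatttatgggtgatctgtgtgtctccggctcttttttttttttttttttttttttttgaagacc
A match describes these letters and is not evidence of binding. *Snai1*, *Msx1* and *Postn* were all among the genes that did not pass the test.

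**Figure D3:**
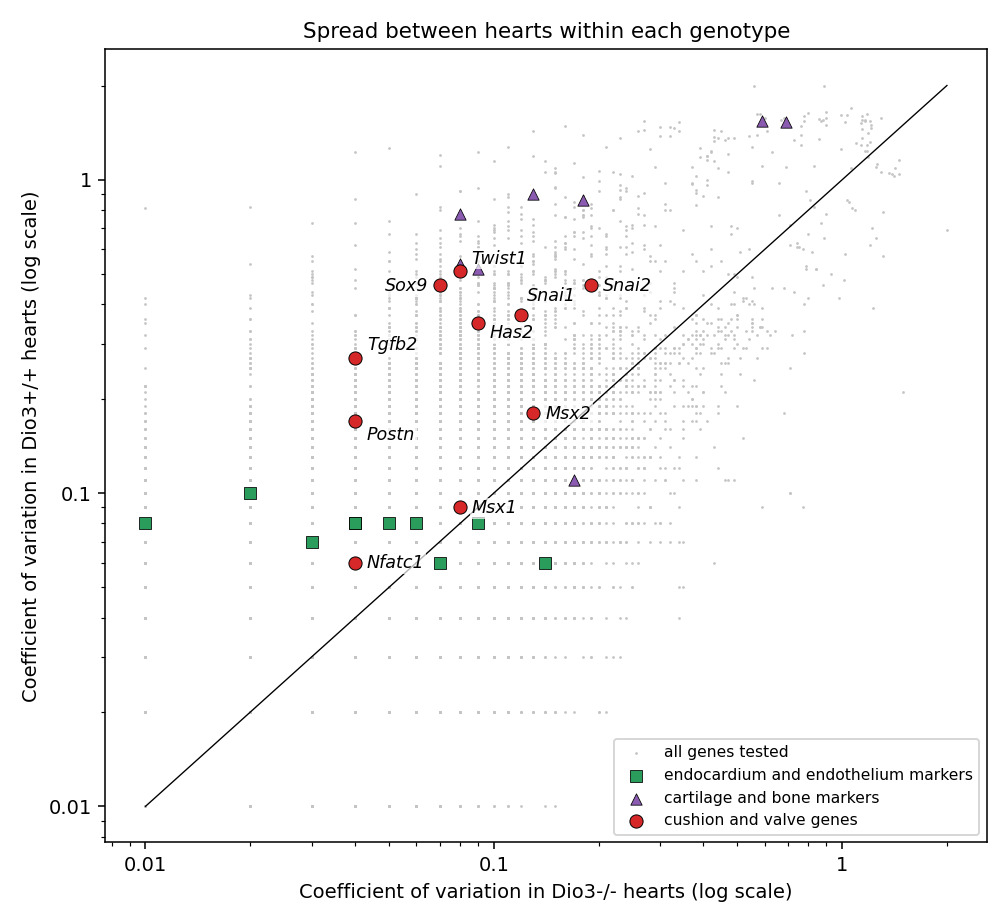
CV of each gene in Dio3-/- hearts (x axis) against Dio3+/+ hearts (y axis), both on log scales, with equal values on the diagonal line; 18 of the 14657 genes, with a value of 0 or none, are not drawn. All 10 cushion and valve genes (red) lie above the line, with *Twist1*, *Sox9* and *Snai2* between 0.46 and 0.51 in Dio3+/+ hearts. The cartilage and bone markers (purple) lie at 0.52 (*Col2a1*) or more in Dio3+/+ hearts, except *Comp* at 0.11. *Nfatc1* and *Msx1* lie among the endocardial and endothelial markers (green).

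Markers of other cells were read from the same means and CVs. Of 12 cartilage and bone markers, 8 were tested, and all 8 had lower means in Dio3-/- hearts (median log2 fold change −0.86). For all 8, at least 1 Dio3+/+ heart was above all Dio3-/- hearts, beside 22.3% of all genes tested. Their median CV was 0.82 in Dio3+/+ and 0.15 in Dio3-/- hearts, and their summed means were 47.37 and 21.49 RPKM. *Ibsp*, *Alpl*, *Lect1* and *Sp7* passed the limit for testing only through their Dio3+/+ means. The limit thus partly sets the shared direction, the median, the CVs and the sums. It also partly sets for how many of the 8 a Dio3+/+ heart was above all Dio3-/- hearts. Among the markers not tested, *Acan* had 0.95 and 0.72 RPKM and *Bglap* 0.07 and 0.10 RPKM. *Ibsp*, bone sialoprotein, passed the test with means of 11.25 RPKM (CV 1.54) across Dio3+/+ and 0.03 RPKM (0.59) across Dio3-/- hearts (adjusted *P* = 0.033 by limma, 0.646 by Welch's test). *Col2a1*, the main collagen gene of cartilage, which valves also express, had 15.73 RPKM (0.52) and 8.40 RPKM (0.09), and the cartilage gene *Matn1* was near 0, with 0.02 and 0.04 RPKM. Whether tissue of this kind in a Dio3+/+ sample had a part in the spread of *Sox9*, *Twist1* and the other genes was not tested.

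The endocardial and endothelial markers had little spread, like *Nfatc1*. The CVs of all 10 were between 0.06 and 0.10 in Dio3+/+ hearts, and all 10 had higher means in Dio3-/- hearts (9 with centring). The limits put a Dio3+/+ heart above all Dio3-/- hearts for none of them and a Dio3-/- heart above all Dio3+/+ hearts for 5, beside 22.3% and 26.9% of all genes tested, and set the genotypes apart for *Egfl7*, named after its values were seen. By limma 0 passed the test (0 by Welch's test, 2 at an unadjusted *P* value under 0.05 by either test). The 7 epicardial markers had CVs from 0.04 to 0.24 in Dio3+/+ hearts, and 0 passed by either test (2 at an unadjusted *P* value under 0.05 by limma, 0 by Welch's test). Of the 10 cardiomyocyte markers, *Myh6* and *Ryr2* rose by limma, with log2 fold changes of 1.06 and 0.59, and 1 of the 10 passed by Welch's test. Of 5 macrophage markers, 3 were tested and *Lyz2* rose, with a log2 fold change of 0.48 by limma, and 0 passed by Welch's test (1 at an unadjusted *P* value under 0.05).

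Markers of tissues and cells outside the heart wall were also read. All 8 liver markers had higher means in Dio3-/- hearts, with summed means of 15.98 and 108.11 RPKM, and 0 passed by limma or Welch's test (8 and 0 at an unadjusted *P* value under 0.05). Their CVs were from 0.50 to 1.41 in Dio3+/+ and from 0.89 to 1.26 in Dio3-/- hearts. *Fgb*, *Ttr* and *Ahsg* passed the limit for testing only through their Dio3-/- means. The limit thus partly sets the shared direction, the sums and the counts of these markers. All 7 erythroid markers had lower means in Dio3-/- hearts, with summed means of 37288 and 12753 RPKM. Of these, *Hbb-bh1* passed by limma but not with centring or Welch's test. At an unadjusted *P* value under 0.05, limma and Welch's test gave 7 and 5 of the 7, beside 19.7% and 16.4% of all genes tested. Of 7 lung and foregut markers, 2 were tested and 0 passed by either test or at an unadjusted *P* value under 0.05. The tested marker *Nkx2-1* had means of 8.18 RPKM (CV 0.16, Dio3+/+) and 8.35 RPKM (CV 0.20, Dio3-/-). For *Krt8*, also tested, the means were 3.07 RPKM (0.14) and 3.20 RPKM (0.43), given in the same order. *Sftpc*, which was not tested, was listed at 0 in Dio3+/+ hearts. Of 7 markers of neural crest, Schwann cells and neurons, 2 were tested, and *Tubb3* rose by limma, with 0 passing by Welch's test (1 at an unadjusted *P* value under 0.05). The part of these cells in the values of the cushion and valve genes was not tested.

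The other genes of cushion and valve development were taken from lists by role. Of 141 genes, 137 were tested, and 4 rose in Dio3-/- hearts by limma while 0 fell, which is 2.92% against 2.29% of all genes tested. With any row counted, 5 of 137 passed, the fifth being *Nfatc2*, against 2.59% of all genes tested. The median log2 fold change over the 137 genes was 0.0034, beside 0.04 over all genes tested. Of the 137 genes, 58 (42.3%) had at least 1 Dio3+/+ heart above all Dio3-/- hearts, beside 22.3% of all genes tested, and 26 (19.0%) had at least 1 Dio3-/- heart above all Dio3+/+ hearts, beside 26.9%.

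*Vegfa*, the growth factor of endothelial cells that also acts on endocardial cells of the cushions, rose from 22.62 RPKM (CV 0.03) to 31.57 RPKM (0.05), or by 0.47 in log2 units (standard error 0.05, adjusted *P* = 0.0023 by limma). *Bmpr1a*, a receptor for BMP ligands, rose from 53.97 RPKM (0.08) to 72.53 RPKM (0.03), or by 0.42 in log2 units (standard error 0.06, adjusted *P* = 0.0088 by limma). *Ptpn11*, which encodes the phosphatase SHP2 of receptor signaling, rose from 39.58 RPKM (0.04) to 47.03 RPKM (0.02), and *Hapln1*, which links hyaluronan to proteoglycans in the cushion matrix, from 23.49 RPKM (0.07) to 29.13 RPKM (0.05). Their log2 fold changes were 0.25 (adjusted *P* = 0.025 by limma) and 0.30 (adjusted *P* = 0.039 by limma). The limits set the hearts of the genotypes apart for these 4 genes and for 6 of the 137 in all (4.38%, beside 3.85% of all genes tested). With Welch's test none of the 4 passed (adjusted *P* from 0.077 to 0.129), and with centring *Ptpn11* (0.059) and *Hapln1* (0.073) did not.

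By role, 1 of 25 genes of TGF-β and BMP signaling rose (*Bmpr1a*), 0 of 12 of Notch signaling, 2 of 28 of VEGF, EGF, Wnt and calcineurin signaling (*Vegfa* and *Ptpn11*), 0 of 29 transcription factors, 1 of 38 matrix and remodeling genes (*Hapln1*) and 0 of 5 adhesion and cytoskeletal genes of EMT. At an unadjusted *P* value under 0.05, limma and Welch's test gave 5 and 6 of the TGF-β and BMP genes, 2 and 2 of the Notch genes, 8 and 8 of the next list, 4 and 3 of the transcription factors, 4 and 3 of the matrix genes and 1 and 1 of the EMT genes. This is 24 and 23 of the 137 genes, beside 19.7% and 16.4% of all genes tested. In the matrix list, 25 of 38 genes (65.8%) had at least 1 Dio3+/+ heart above all Dio3-/- hearts, beside 22.3% of all genes tested. The opposite held for 3 of the 38 genes (7.89%), beside 26.9%. The median CV of the 38 genes was 0.19 in Dio3+/+ and 0.05 in Dio3-/- hearts. *Col11a1*, a fibrillar collagen of cartilage and valves, had 8.10 RPKM (0.81) and 4.40 RPKM (0.01), which is −0.81 in log2 units, with an adjusted *P* value of 0.364 by limma. *Twist2*, the paralog of *Twist1*, had 4.40 RPKM (1.25) and 1.44 RPKM (0.28), which is −1.34 in log2 units, with an adjusted *P* value of 0.316 by limma.

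Of the genes with the largest difference in their list, 3 others did not pass the test. *Nfatc4*, a relative of *Nfatc1*, had 10.74 RPKM (CV 0.64) across Dio3+/+ and 6.79 RPKM (0.09) across Dio3-/- hearts, with an adjusted *P* value of 0.391 by limma. *Heyl*, a target of Notch, had 4.45 RPKM (0.08) and 5.58 RPKM (0.07), with an adjusted *P* value of 0.069 by limma. *Acta2*, the smooth muscle actin gene that marks cells in EMT, had 512.90 RPKM (0.09) and 625.44 RPKM (0.07), with an adjusted *P* value of 0.088 by limma. *Nfatc4* and *Twist2* thus had the wide spread in Dio3+/+ hearts seen for *Twist1* and *Sox9*, whereas *Heyl* and *Acta2* had little spread in either genotype.

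**Figure D4:**
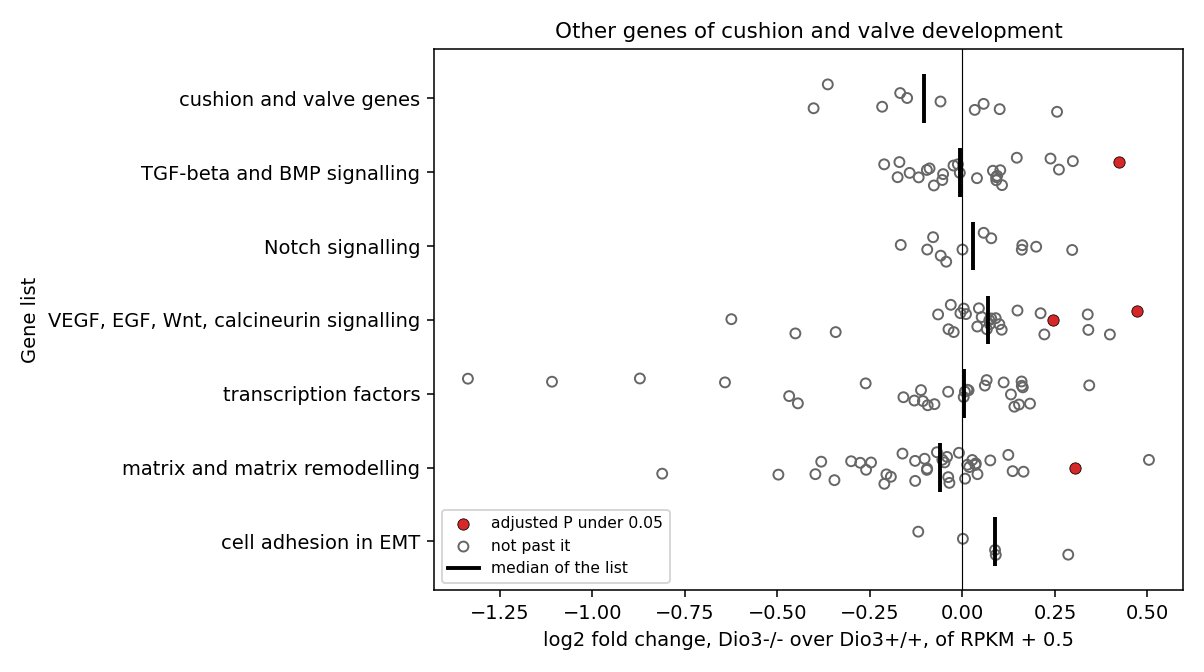
Log2 fold change between Dio3-/- and Dio3+/+ hearts (x axis, of RPKM + 0.5) for the 10 cushion and valve genes (top row) and the tested genes of 6 other lists, 1 circle a gene, with the median of each list as a black bar. The red circles are the 4 genes that passed by limma (*Vegfa*, *Bmpr1a*, *Ptpn11* and *Hapln1*), all to the right of 0, and the circles farthest to the left, down to −1.34 for *Twist2*, are not past the threshold.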

How the data were processed

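RNA of single hearts (4 Dio3+/+, 4 Dio3-/-) was depleted of ribosomal RNA and sequenced single-end. The authors aligned reads with NovoAlign (version 2.08), kept unique alignments and scaled libraries linearly. The genome build is not given in the sources used here. The authors deposited genotype means, read here as RPKM, the unit of their filter, since the table names none, and coefficients of variation, a ratio. The authors' fold changes and q values were not used.

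Means were put on the log2(RPKM + 0.5) scale, SDs were derived from the coefficients of variation, and limma 3.58.1 in R 4.3.3 was used to moderate their pooled variance along a mean-variance trend (6 residual and 3.52 prior degrees of freedom). The log of a mean stands in for a mean of logs, least reliable at a large spread. *P* values (two-sided) were Benjamini-Hochberg adjusted across 32703 rows. The method was tested on simulated data in which both genotypes had the same coefficient of variation. For all 10 genes it was larger in Dio3+/+ hearts, a setting that was not simulated. Python (version 3.11.15) was used for summaries.

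The members and lists were chosen with earlier results of these data known. Named from the lists were genes that passed, the largest difference in each list, and the extremes and defining genes of marker lists. Alternatives were other pseudocounts and filters, no trend, 1 row per gene, Welch's test, centring, a raised coefficient of variation and no wide-spread rows.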

Additional observations from a re-analysis of the deposited data

How the results depend on the processing

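None of the 10 genes passed under any of the 11 alternatives, and 0 had an unadjusted *P* value under 0.05, where 8 were tested with a mean over both genotypes above 5 RPKM and 9 without rows with a coefficient of variation above 0.5. The lowest adjusted *P* value was 0.270, for *Msx2* in the latter, and 0.412 with Welch's test. The sign of *Postn* turned with centring (−0.0047), and the other 9 genes kept theirs where tested. The other lists gave 4 genes, 2 with centring, 0 with Welch's test (23 at an unadjusted *P* value under 0.05) and 3 to 6 otherwise. Centring, a shift of 0.04, moved the genes higher and lower in these lists from 70 and 66 to 57 and 80. Over all 14657 genes, the number that passed was 336, and 26 with Welch's test, 180 with centring, 187 with the coefficient of variation raised by 0.005, 197 of 24817 without a filter, 382 of 10160 with a mean above 5 RPKM and 495 of 14215 without rows with a coefficient of variation above 0.5. The cause of these differences was not tested. *Hapln1* did not pass without a filter or without a trend (both 0.058) or with the raised coefficient of variation (0.059, limma), nor *Ibsp* with a pseudocount of 1 (0.058) or without a filter (0.062). No paired analysis was possible because the table holds genotype means only. For the same reason no heart could be left out, and depth cannot be read from the table.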
